A study of Homo sapiens with 32 samples.

Results

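Start sites of 8 human genes of fatty acid and prostaglandin metabolism, FASN, SCD, ACACA, SREBF1, ELOVL5, ELOVL7, FADS1 and HPGD, were followed in prostate cancer cells treated with androgens and an antiandrogen. They were measured by cap analysis of gene expression (CAGE), which counts the capped 5′ ends of RNAs. Each tag marks a capped 5′ end, taken here as a start site, and its count does not scale with the length of the gene. A site was taken for 1 of these genes where its hg19 position and strand fell inside a fixed window around that gene. The windows hold 61 of the 32828 listed sites, namely 48 of 19534 in the R1881 table and 13 of 13294 in the table of treated lines, and 9 site names occur in both. FASN has 25 sites in the R1881 table, ACACA 6, SCD 5, FADS1 4, SREBF1 3, ELOVL5 3, ELOVL7 1 and HPGD 1. In the table of treated lines ACACA and SCD have 3 each, SREBF1 and ELOVL5 have 2 each, FASN, ELOVL7 and FADS1 have 1 each, and HPGD has 0. The tables name no genes, so a site's gene rests on its window alone, and whether it lies in an exon or an intron was not looked up. For the same reason the defining markers of the labelled lines were not read. In RNA from bulk cultures, fewer cells of a type and less RNA per cell cannot be told apart.

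LNCaP is an androgen-responsive prostate cancer line, and BicR is labelled as another prostate cancer line, with no meaning given for the name. All cells spent 3 days in hormone-depleted serum before treatment. The time course used R1881, a synthetic agonist of the androgen receptor, on LNCaP cells. It has 2 libraries at each of 0, 3, 6, 12, 18, 48 and 72 h. The dose is not settled, since the libraries' own labels give 1 nM R1881 and the shared protocol 10 nM over 24 h. No vehicle library was taken after 0 h, so R1881 and time in culture cannot be told apart. In the other experiment BicR and LNCaP cells received 10 nM dihydrotestosterone (DHT, a natural androgen) with 1 µM bicalutamide (an androgen receptor antagonist), DHT alone, bicalutamide alone, or ethanol, the vehicle. Every combination has 1 library for 6 h and 1 for 24 h, and both lines have 1 untreated library from 0 h. The labels do not say whether libraries of 1 group came from separate cultures, so p-values measure the spread between these libraries.

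Fatty acids are built in the cytosol from acetyl-CoA. ACACA, acetyl-CoA carboxylase, makes malonyl-CoA in the committed step, and FASN, fatty acid synthase, joins these units into palmitate. ELOVL5 and ELOVL7 are elongases that lengthen fatty acids, SCD (stearoyl-CoA desaturase) makes monounsaturated fatty acids, and FADS1 is the delta-5 desaturase of polyunsaturated fatty acids, including the precursor of prostaglandins. SREBF1 encodes SREBP1, a transcription factor that is released from the endoplasmic reticulum membrane and drives many of these genes. HPGD, 15-hydroxyprostaglandin dehydrogenase, inactivates prostaglandins. Lipid synthesis is a known target of androgens in prostate cancer cells.

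Promoters of some of these genes, chosen by their levels over the time course, are shown here. RefSeq promoters (GRCh38.p14, 250 bases before to 50 bases after the annotated start) were found for 7 of the 8 genes, in 10 entries. FASN had no entry, and those of ACACA and SREBF1 are not shown. Those below run 5′ to 3′ along the gene, with the letters CCAAT, read on either strand (ATTGG on the other), in capitals. The start sites are in hg19 coordinates and were not placed on these GRCh38.p14 promoters. SCD and FADS1 are shown because they were highest at the last times, ELOVL5 and ELOVL7 because they stood near their highest levels by 12 h, and HPGD (1 of its 2 entries) because it had 0 tags at 0 h.
SCD promoter, chr10:100346983-100347282, plus strand: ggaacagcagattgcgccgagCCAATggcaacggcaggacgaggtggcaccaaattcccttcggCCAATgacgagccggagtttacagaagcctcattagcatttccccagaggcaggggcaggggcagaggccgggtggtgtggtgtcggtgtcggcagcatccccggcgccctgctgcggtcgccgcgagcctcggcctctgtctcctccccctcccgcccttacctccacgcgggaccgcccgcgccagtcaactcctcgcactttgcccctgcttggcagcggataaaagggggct
FADS1 promoter, chr11:61816954-61817253, minus strand: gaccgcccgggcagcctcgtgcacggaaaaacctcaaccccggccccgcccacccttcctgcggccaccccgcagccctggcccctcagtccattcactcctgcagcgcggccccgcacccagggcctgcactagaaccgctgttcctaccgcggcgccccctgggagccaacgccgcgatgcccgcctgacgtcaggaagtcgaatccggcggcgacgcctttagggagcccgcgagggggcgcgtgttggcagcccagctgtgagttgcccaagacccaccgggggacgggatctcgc
ELOVL5 promoter, chr6:53348901-53349200, minus strand: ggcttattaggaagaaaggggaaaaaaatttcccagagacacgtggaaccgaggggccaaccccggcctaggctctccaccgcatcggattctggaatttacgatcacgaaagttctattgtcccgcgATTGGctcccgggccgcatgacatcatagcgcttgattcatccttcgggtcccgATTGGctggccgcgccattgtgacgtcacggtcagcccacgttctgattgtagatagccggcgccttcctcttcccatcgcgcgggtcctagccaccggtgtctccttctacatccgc
ELOVL7 promoter, chr5:60844220-60844519, minus strand: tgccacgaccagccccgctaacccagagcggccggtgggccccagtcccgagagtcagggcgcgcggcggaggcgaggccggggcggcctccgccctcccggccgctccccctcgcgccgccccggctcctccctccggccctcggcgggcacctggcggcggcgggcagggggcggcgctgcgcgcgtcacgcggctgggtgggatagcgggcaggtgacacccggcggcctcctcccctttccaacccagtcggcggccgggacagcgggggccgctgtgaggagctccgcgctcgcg
HPGD promoter, chr4:174522439-174522738, minus strand: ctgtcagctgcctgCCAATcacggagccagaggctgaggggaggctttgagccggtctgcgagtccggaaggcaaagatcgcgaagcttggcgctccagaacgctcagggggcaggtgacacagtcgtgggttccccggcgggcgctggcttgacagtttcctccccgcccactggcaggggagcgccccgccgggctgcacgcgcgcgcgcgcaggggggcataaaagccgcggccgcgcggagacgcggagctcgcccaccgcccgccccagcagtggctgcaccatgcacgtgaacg
The CCAAT letters, a box bound by NF-Y, occurred in 5 of the 10 entries, against 34.6% of 35116 promoters of that length in the table. SCD holds them at positions -229 and -186 from the start, ELOVL5 at -122 and -68, and HPGD at -236. The GC box GGGCGG occurred on either strand in 7 of the 10 entries, against 45% of all promoters. The androgen response half-site AGAACA occurred in 0 of the 10 entries, against 14.8% of all promoters. Also in 0 of the 10 were the full androgen response element (0.00285% of all promoters), the sterol regulatory element TCACNCCAC (N is any base, 1.13%) and the TATA box TATAAA (11.5%). The E-box CACGTG occurred in 2 of the 10, against 7.26%. These 10 entries stand for 7 genes, so they are not separate genes. A match is a description of letters in this window, and its absence says only that they are not there.

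Libraries of the time course held 128463 to 1075743 tags for replicate 1 and 1357958 to 3837493 for replicate 2, and those of the treated lines held 4139807 to 7753336. Levels are the authors' RPM, tags scaled to a common library total. For a site with 0 tags, 3 tags correspond to 2.37 to 19.4 RPM in replicate 1, 0.691 to 1.86 RPM in replicate 2 and 0.326 to 0.601 RPM in the treated lines, limits that cover counting error only. The 6 h and 18 h libraries of replicate 2 stood apart from the others, with median correlations of 0.554 and 0.604 across 3104 sites, and were most like each other (0.938). The library labelled BicR with DHT and bicalutamide at 6 h was closer to its LNCaP counterpart (0.953) than to any BicR library (at most 0.943). Results that rest on these libraries are given with and without them where the call differs.

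Over the R1881 time course the mean levels of ELOVL5, ELOVL7 and ACACA neared their highest values by 12 h, while those of FASN, SCD and FADS1 were highest at 72 h. In replicate 1 alone, FASN and SCD were higher at 48 h than at 72 h. These are levels at the leading site of each gene, the one with the highest mean RPM. HPGD and the elongase ELOVL7 passed the test at 12 h and at each later time. The leading site of FASN passed at 72 h. Of the 48 sites 37 passed the filter on low counts. At 3 h 0 of these were called, where 0% of 15999 sites were called (1 member at an unadjusted p under 0.05, and 0 with DESeq2). At 6 h 0 were called against 0% of all sites (7 members unadjusted, 1 with DESeq2). At 12 h 2 of 37 were called and higher, against 0.231% of all sites called in either direction and 0.231% called higher. Both 18 h and 48 h gave 2 of 37, all higher, against 0.988% and 1.89% in either direction and 0.713% and 1.39% higher. The count at 72 h was 3 of 37, all higher, against 2.5% in either direction and 1.51% higher. Calls are an adjusted p under 0.05 in edgeR's quasi-likelihood test, with Benjamini-Hochberg adjustment over all sites. With the replicate number as a block, which pairs same-numbered libraries, 4 members were called at 6 h (2 higher and 2 lower, against 6.61% of all sites), 3 at 18 h (13%), 8 at 48 h (8.54%) and 15 at 72 h (12.2%), the last 2 counts holding rises alone. With replicate 2 of 6 h and of 18 h left out, the libraries that stood apart, 1 member of 42 tested was called at 18 h (against 0.224% of all sites) and 9 at 72 h (against 5.52%). Leaving out either 0 h library gave 1 call at 48 h (0.133% and 0.151% of all sites) and 1 at 72 h (0.46% and 0.224%). Leaving out replicate 2 of the time itself also gave 1 (0.359% at 48 h and 0.426% at 72 h). At 48 h 28 of the 37 member sites did not overlap with 0 h, against 46.4% of all sites, and at 72 h 24 of 37 against 49.8%. Of these 27 and 23 lay above 0 h, against 20.6% and 23.2% of all sites. FASN alone holds 19 of the 37 sites, and all 19 had a log2 fold change above 0 at both times. These counts and the member medians therefore lean on 1 gene, whose sites are not independent. The median log2 fold change was 1.12 over the 37 member sites at 48 h and -0.02 over all 15999, and 1.38 against 0.01 at 72 h, a description in which the filter favours sites that are high at some time. HPGD lies above the median also when 3 tags per library are put at 0 h.

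**Figure D1:**
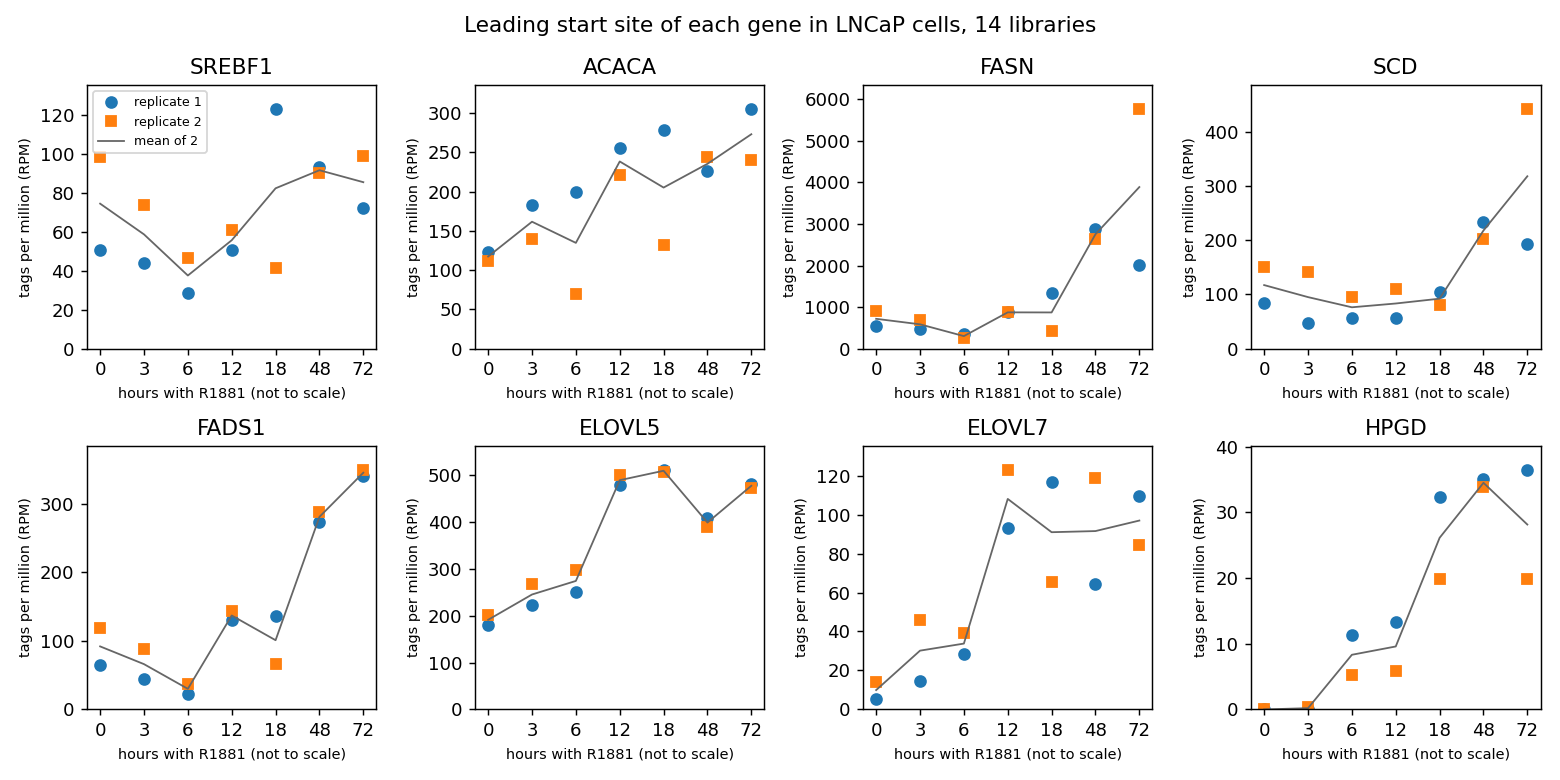
RPM at the leading start site of each gene in LNCaP cells by hours with R1881, with 1 point per library (circles replicate 1, squares replicate 2) and a line through the mean of 2. ELOVL5 and ELOVL7 are near their highest level by 12 h, FASN, SCD and FADS1 are highest at 48 h and 72 h, and HPGD has 0 tags at 0 h. The SREBF1 panel shows its downstream site.

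SREBF1, the regulator, had a pair of main start sites 13374 bases apart on chromosome 17, minus strand. The downstream site, at 17726925 (chr17:17726848-17726985, minus strand), stood at 50.6 and 98.4 RPM (0 h), 43.8 and 73.6 (3 h), 28.5 and 46.7 (6 h), 50.5 and 60.9 (12 h), 123 and 41.6 (18 h), 93.2 and 90.1 (48 h), and 72.0 and 99.0 (72 h) (replicate 1, then replicate 2, at each time). Its groups overlapped between 48 h or 72 h and 0 h, and no time passed the test. The upstream site, at 17740299 (chr17:17740064-17740374, minus strand), stood at 92.6 and 81.8 RPM (0 h), 77.1 and 89.5 (3 h), 39.9 and 23.3 (6 h), 42.5 and 57.8 (12 h), 64.8 and 30.4 (18 h), 70.3 and 57.3 (48 h), and 62.9 and 43.5 (72 h). It was lower at 6 h in both libraries than in either 0 h library (log2 fold change -1.48, SE 0.48, adjusted p = 0.207), and passed with the replicate block (adjusted p = 0.0436). At 72 h its log2 fold change was -0.67 (adjusted p = 0.519). The least used site, at 17723753, had a mean of 8.34 RPM over the 14 libraries.

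As a share of the tags at both main sites, the upstream site of SREBF1 took 46.6% (37.9 to 55.5%) and 30.5% (26.9 to 34.3%) at 72 h, against 64.6% (57.2 to 71.6%) and 45.4% (41.5 to 49.3%) at 0 h, with 95% exact binomial intervals in parentheses. At 48 h it took 43.0% (33.5 to 52.9%) and 38.9% (34.8 to 43.1%). At the times between it took 63.8% and 54.9% (3 h), 58.3% and 33.3% (6 h), 45.7% and 48.7% (12 h), and 34.5% and 42.2% (18 h). The share was below its replicate's 0 h value at 6, 18, 48 and 72 h in both replicates, while in replicate 2 it was above that value at 3 h and 12 h. Replicate 1 at 6 h rests on 7 upstream and 5 downstream tags. Its interval (27.7 to 84.8%) and that of replicate 2 at 18 h (33.1 to 51.8%) include the 0 h share, and the other intervals at those times lay below it. Unequal change among the SREBF1 sites over 18, 48 and 72 h did not pass (diffSpliceDGE with the Simes method, unadjusted p = 0.34). The intervals cover counting error only. In the treated lines the share ran between 49.6% (LNCaP, ethanol, 6 h) and 64.8% (BicR, bicalutamide, 24 h), and at 24 h it was 51.2% (47.9 to 54.6%) with DHT in BicR cells, against 60.3% (56.9 to 63.6%) with ethanol. At 6 h these shares were 51.3% (47.8 to 54.7%) with DHT and 50.2% (46.9 to 53.4%) with ethanol.

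**Figure D2:**
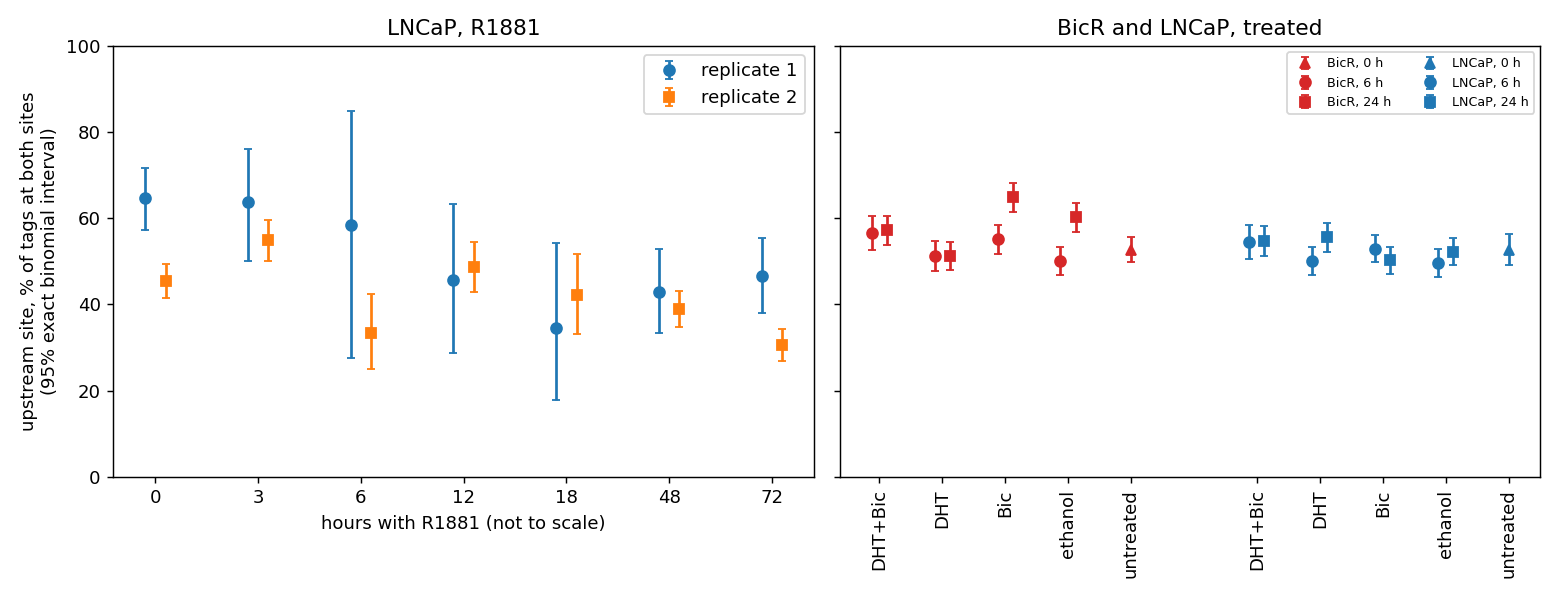
Share of SREBF1 tags at the upstream of its 2 main start sites (vertical axis, percent of tags at both, bars are 95% exact binomial intervals), by hours with R1881 on the left and by line and treatment on the right, 1 point per library. In the time course the share is lower at 72 h than at 0 h within each replicate, and in the treated lines it lies between 49.6% and 64.8%.

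ACACA, the first enzyme of the pathway, had its leading site at 35716035 (chr17:35715959-35716104, minus strand), at 123 and 112 RPM (0 h), 183 and 139.9 (3 h), 199.5 and 70.0 (6 h), 255 and 222 (12 h), 279 and 132 (18 h), 226 and 245 (48 h), and 305 and 241 (72 h). Both libraries were above both 0 h libraries at 3, 12, 18, 48 and 72 h, while at 6 h replicate 1 was higher and replicate 2 lower. At 72 h it averaged 273 ± 45.6 RPM, against 117 ± 7.43 at 0 h (SD, n = 2 each), a difference that did not pass (log2 fold change 1.28, SE 0.47, adjusted p = 0.182) and passed with the replicate block (adjusted p = 0.0367). A site 57593 bases further along the gene, at 35658442, averaged 13.2 RPM over the 14 libraries, and its log2 fold change at 72 h was 0.66 (adjusted p = 0.636). The other 4 ACACA sites averaged 2.77 to 5.72 RPM.

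FASN, which makes palmitate, had the leading site with the highest mean of the 8 genes at each of the 7 times, at 80056110 (chr17:80055996-80056306, minus strand). It stood at 541 and 897 RPM (0 h), 482 and 692 (3 h), 342 and 264 (6 h), 874 and 875 (12 h), 1329 and 416 (18 h), 2875 and 2634 (48 h), and 2009 and 5771 (72 h). Levels dipped at 6 h below both 0 h libraries without passing (log2 fold change -1.16, SE 0.58, adjusted p = 0.352) and exceeded both at 48 h and 72 h. At 72 h FASN averaged 3889.6 ± 2660.2 RPM, against 719 ± 251.4 at 0 h (SD, n = 2 each), a rise of 5.80-fold (log2 fold change 2.54, SE 0.60, adjusted p = 0.0379). The call ended without replicate 1 or 2 of 0 h (adjusted p = 0.293 or 0.18) and without replicate 2 of 72 h (0.55, log2 1.40), the highest FASN library. At 48 h its replicates lay closer together and the level was 3.99-fold that at 0 h (adjusted p = 0.112, and 0.0148 with the replicate block). FASN at 18 h is a case where replicates parted, with 1329 RPM in replicate 1 and 416 in replicate 2, one of the libraries that stood apart. In the libraries of replicate 2 that stood apart ELOVL5 was above FASN, with 298 against 264 RPM (6 h) and 507 against 416 RPM (18 h).

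The other 24 FASN sites lay 1798 to 18711 bases downstream of the leading one and together took 5.05 to 15.5% of the gene's tags in a library. Of these 18 were tested, and 18 of 18 had a log2 fold change above 0 at 72 h, between 0.81 and 3.00 with a median of 1.34, none of which passed alone. At 48 h they lay between 0.31 and 2.74. With the replicate block 5 of the 18 passed at 72 h, where 12.2% of all sites were called. Among these 5 were the sites 2764 bases downstream (80053346, log2 2.99, adjusted p = 0.00359) and 4854 bases downstream (80051256, log2 2.28, adjusted p = 0.0105). At 48 h 1 of the 18 passed with the block (80046051, adjusted p = 0.0498), where 8.54% of all sites were called. The sites share their source, since all lie in 1 gene, and whether each is a separate start of transcription was not tested. The most used of them, at 80049533, averaged 17.5 RPM over the 14 libraries. It stood at 18.99 and 12.9 RPM (0 h), 14.6 and 12.4 (3 h), 11.4 and 1.75 (6 h), 10.6 and 11.01 (12 h), 25.9 and 2.48 (18 h), 6.11 and 31.7 (48 h), and 29.4 and 56.0 (72 h).

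**Figure D3:**
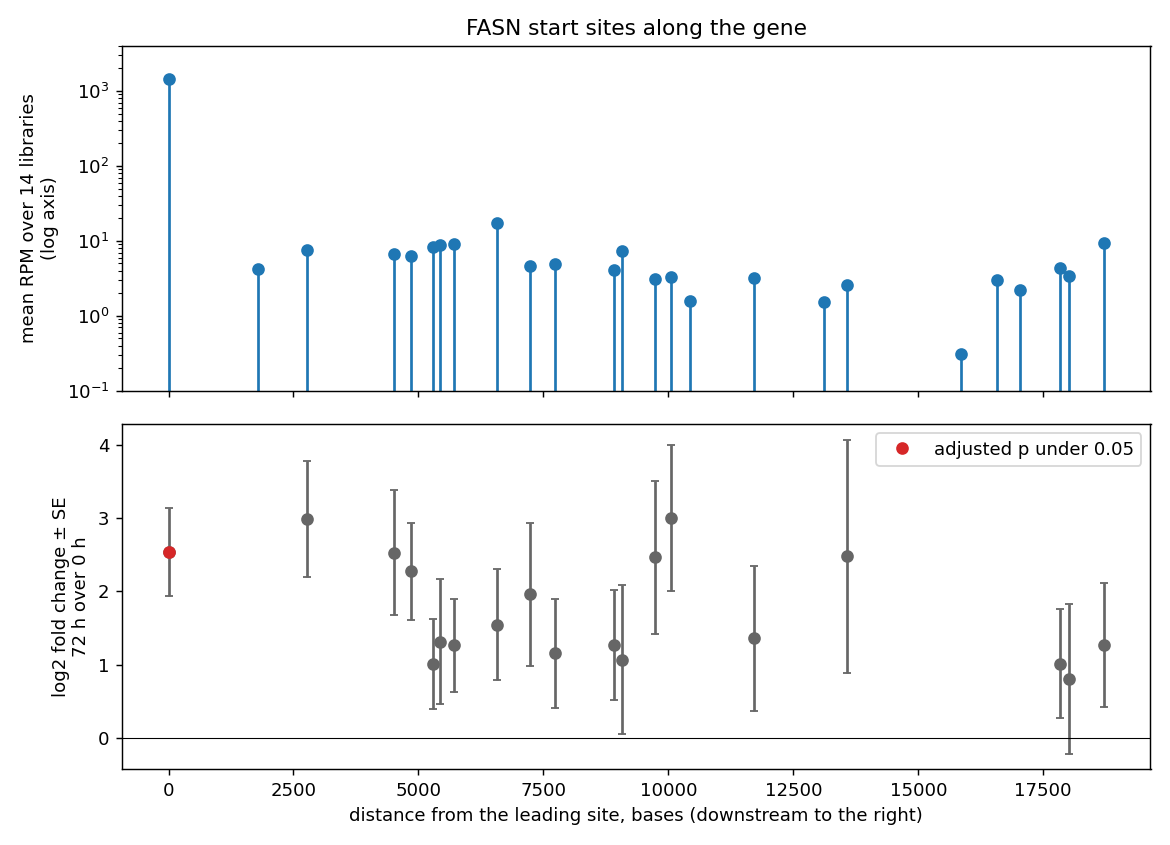
FASN start sites by distance downstream of the leading site in bases, with the mean RPM over 14 libraries on a log axis (top) and the log2 fold change of 72 h over 0 h with its SE for the 19 sites tested (bottom, red for an adjusted p under 0.05). The leading site stands at a mean of 1429 RPM and the others at or below 17.5, and the 19 fold changes lie above 0.

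SCD, the stearoyl-CoA desaturase, had 3 start sites within 245 bases on chromosome 10, plus strand. The leading one, at 102106989 (chr10:102106916-102107026, plus strand), stood at 84.7 and 149.9 RPM (0 h), 47.9 and 142 (3 h), 57.0 and 95.7 (6 h), 55.8 and 111 (12 h), 104 and 80.7 (18 h), 234 and 202 (48 h), and 194 and 442 (72 h). It was above both 0 h libraries at 48 h and 72 h in both replicates, and within or below them at the times between. At 72 h it averaged 318 ± 176 RPM, against 117 ± 46.1 at 0 h (SD, n = 2 each, log2 fold change 1.53, SE 0.60, adjusted p = 0.217, and 0.028 with the replicate block). The site 123 bases upstream, at 102106866, stood at 18.99 and 51.2 RPM (0 h), 25.0 and 39.5 (3 h), 11.4 and 8.17 (6 h), 10.6 and 38.1 (12 h), 19.4 and 16.8 (18 h), 101 and 90.3 (48 h), and 71.0 and 165 (72 h). At 6 h it was below both 0 h libraries (log2 -1.84, adjusted p = 0.272, and 0.0414 with the block). At 48 h and 72 h it was above both (log2 1.47 and 1.83, adjusted p = 0.29 and 0.13, and 0.0176 and 0.00502 with the block). The site 122 bases downstream, at 102107111, stood at 2.37 and 9.37 RPM (0 h), 0 and 8.14 (3 h), 0 and 4.67 (6 h), 2.66 and 11.4 (12 h), 0 and 13.7 (18 h), 16.8 and 50.01 (48 h), and 19.3 and 164 (72 h), and passed with the block at 48 h (log2 2.50, adjusted p = 0.301 without it and 0.002 with it) and at 72 h (log2 3.97, 0.0635 without it and 2.00e-05 with it). A lesser SCD site, 102106264, passed at both times with the block alone (adjusted p = 0.0309 and 0.0423).

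FADS1, the delta-5 desaturase, had its leading site at 61584326 (chr11:61584050-61584675, minus strand). It stood at 64.9 and 119 RPM (0 h), 43.8 and 88.4 (3 h), 22.8 and 37.3 (6 h), 130.2 and 144 (12 h), 136 and 65.8 (18 h), 274 and 288 (48 h), and 341 and 349.8 (72 h). The lowest values were at 6 h and the highest at 72 h in both replicates. Its replicates at 72 h differed by little, with a mean of 345 ± 6.30 RPM, against 91.9 ± 38.3 at 0 h (SD, n = 2 each, log2 fold change 1.97, SE 0.503, adjusted p = 0.0525), just outside the threshold and inside it with the replicate block (0.00303). At 48 h the log2 fold change was 1.67 (adjusted p = 0.12, and 0.0133 with the block). The other 3 FADS1 sites averaged 1.00 to 6.496 RPM over the 14 libraries.

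ELOVL5, an elongase of polyunsaturated fatty acids, had replicates that lay close together. Its leading site, at 53213747 (chr6:53213501-53213976, minus strand), stood at 181 and 202 RPM (0 h), 223 and 268 (3 h), 250.8 and 298 (6 h), 478 and 501 (12 h), 512 and 507 (18 h), 408 and 390.1 (48 h), and 482 and 473 (72 h). Both libraries were above both 0 h libraries at each later time. The log2 fold change was 1.35 at 12 h (SE 0.38, adjusted p = 0.232), 1.53 at 18 h (0.0626) and 1.38 at 72 h (0.0666), none of which passed. With the replicate block 18 h and 72 h passed (adjusted p = 0.00998 and 0.0128). The other 2 ELOVL5 sites averaged 1.56 and 4.38 RPM.

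ELOVL7, an elongase of long-chain saturated fatty acids, rose at 12, 18, 48 and 72 h. Its site, at 60140095 (chr5:60139958-60140176, minus strand), stood at 5.54 and 14.3 RPM (0 h), 14.6 and 45.7 (3 h), 28.5 and 39.1 (6 h), 93.0 and 123 (12 h), 117 and 65.2 (18 h), 64.2 and 119 (48 h), and 109.6 and 84.3 (72 h). Every library from 3 h on was above the highest 0 h library, at 3 h in replicate 1 by little (14.6 against 14.3 RPM). That 3 h value rests on 7 tags, and replicate 1 at 6 h on 5. At 3 h 13.6% of all sites lay above 0 h without overlap. At 72 h ELOVL7 averaged 96.9 ± 17.9 RPM, against 9.93 ± 6.21 at 0 h (SD, n = 2 each), a rise of 9.60-fold (log2 fold change 3.26, SE 0.62, adjusted p = 0.014). The other calls were log2 3.38 at 12 h (adjusted p = 0.0416), 3.16 at 18 h (0.0425) and 3.21 at 48 h (0.0178), and 6 h passed with the replicate block (0.0403). Without replicate 1 or 2 of 0 h the adjusted p was 0.484 or 0.368 at 12 h, 0.278 or 0.176 at 18 h, 0.215 or 0.1 at 48 h and 0.15 or 0.0831 at 72 h. It was also lost without replicate 1 or 2 of 12 h (0.108 or 0.352), replicate 2 of 18 h (0.113, or 0.0831 without replicate 2 of 6 h as well), replicate 2 of 48 h (0.175), or replicate 1 or 2 of 72 h (0.0547 or 0.0719).

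HPGD, which breaks down prostaglandins, rose at 12, 18, 48 and 72 h and had 0 tags in both 0 h libraries. The site, at 175443638 (chr4:175443521-175443920, minus strand), stood at 0 and 0 RPM (0 h), 0 and 0.388 (3 h), 11.4 and 5.25 (6 h), 13.3 and 5.90 (12 h), 32.4 and 19.9 (18 h), 35.2 and 33.9 (48 h), and 36.5 and 19.8 (72 h). In tags the libraries held 0 and 1 (3 h), 2 and 9 (6 h), 5 and 15 (12 h), 5 and 32 (18 h), 23 and 126 (48 h), and 36 and 86 (72 h). Against 3 tags per library at 0 h its mean level was 5.2-fold higher (6 h), 6.0-fold (12 h), 16.3-fold (18 h), 21.6-fold (48 h) and 17.6-fold higher (72 h). These ratios allow for counting error at 0 h and not at the later times, where the 6 h and 12 h counts are low. The adjusted p was 0.0592 at 6 h (0.00575 with the replicate block), and later it was 0.0314 (12 h), 0.0039 (18 h), 0.00114 (48 h) and 0.00128 (72 h). The 12 h call was lost without replicate 1 or 2 of 0 h (0.181 or 0.661) or of 12 h (0.0923 or 0.0899), and the 18 h call without replicate 1 or 2 of 0 h (0.0503 or 0.123). At 48 h and 72 h the call held in each of 11 alternatives. For a gene with 1 site, 1 of these, the sum of the gene's sites, repeats the main test.

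A comparison of the late times (48 h and 72 h) with the early ones (3 h and 6 h) avoids the 0 h libraries and uses 4 libraries a side. Of 19 member sites tested 8 were called, all higher at the late times, against 6.32% of 11193 sites called in either direction and 3.26% called higher. FASN averaged 3322 ± 1673 RPM late and 445 ± 188 RPM early (SD, n = 4 each, log2 2.85, adjusted p = 0.00159). FADS1 averaged 313 ± 37.8 RPM late and 48.1 ± 28.3 RPM early (log2 2.54, adjusted p = 0.00159). For both genes the late and early libraries did not overlap, as at 12 of 19 member sites and 15% of all sites, and the call held in each of 13 alternatives. SCD rose at its 3 neighbouring sites, the upstream one (102106866, log2 2.20, adjusted p = 0.013), the downstream one (102107111, log2 3.61, adjusted p = 0.0195) and the leading one (log2 1.499, adjusted p = 0.0472). The upstream SCD site held in each of 13 alternatives, among them the sum of all SCD sites, which is not a test of this site alone.

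Some of these calls rested on single libraries. For HPGD, which averaged 31.3 ± 7.77 RPM late and 4.26 ± 5.33 RPM early (log2 3.33, adjusted p = 0.0161), the call was lost without replicate 2 of 3 h (0.0533). At the downstream SCD site it was lost without replicate 2 of 72 h (0.065). For the leading SCD site it was lost when any of the 8 libraries other than replicate 2 of 6 h was left out (0.0512 to 0.151). Among the further FASN sites, 80050403 rose (log2 2.35, adjusted p = 0.0148), a call lost without replicate 2 of 3 h, 48 h or 72 h (0.056, 0.056 or 0.0548), and so did 80051256 (log2 1.93, adjusted p = 0.0379), lost in each of 6 omissions in which it was tested (0.0507 to 0.0759). ELOVL7 lay just outside the threshold (log2 1.38, adjusted p = 0.0501) and passed with the replicate block (0.0155), which called 11 members and 9.2% of 12322 sites. ELOVL5 (log2 0.65, adjusted p = 0.191), ACACA (log2 0.75, adjusted p = 0.188) and the downstream site of SREBF1 (log2 0.73, adjusted p = 0.205) did not pass.

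**Figure D4:**
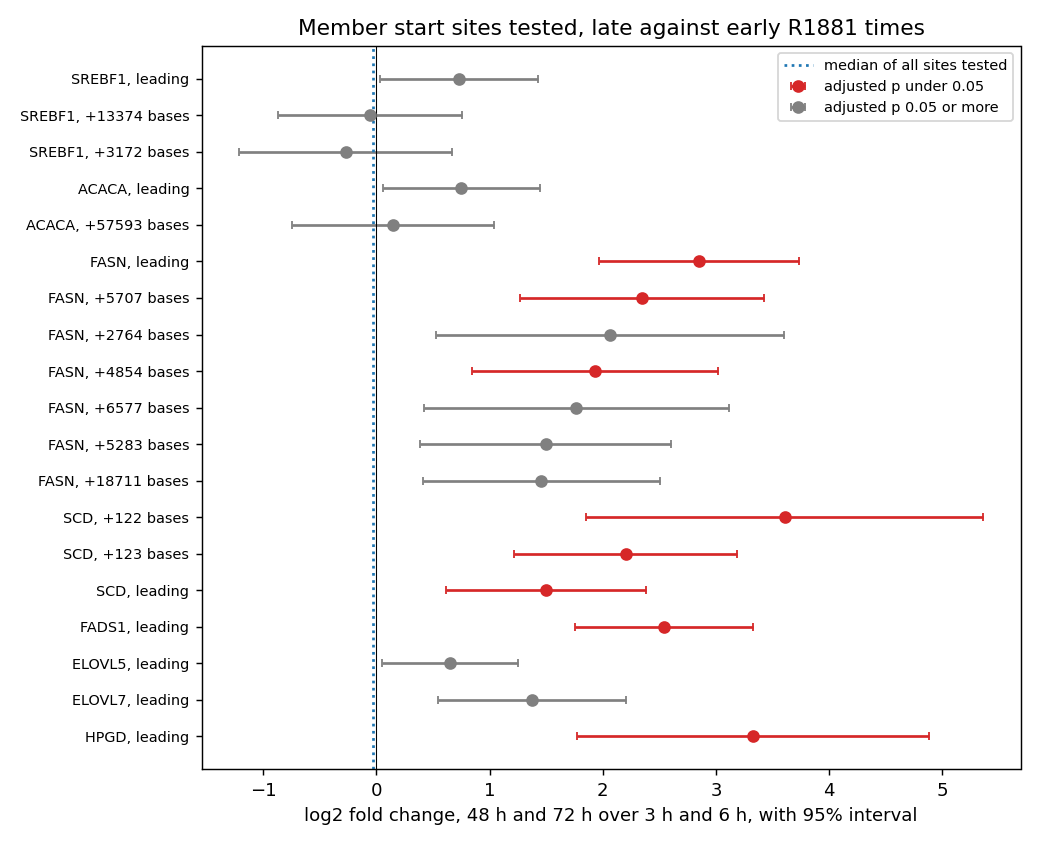
Log2 fold change of 48 h and 72 h over 3 h and 6 h with R1881 for the 19 member sites tested (4 libraries a side, bars are 95% intervals), labelled by gene and by unsigned distance from the gene's leading site in bases. Red points passed at an adjusted p under 0.05, and the dotted line is the median of all sites tested.

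At the leading site of each gene, at 0 h FASN averaged 719 ± 251.4 RPM (SD, n = 2), ELOVL5 191 ± 14.5, ACACA 117.4 ± 7.43, SCD 117.3 ± 46.1, FADS1 91.9 ± 38.3, SREBF1 74.5 ± 33.7, ELOVL7 9.93 ± 6.21 and HPGD 0. The ranges of ACACA, SCD, FADS1 and SREBF1 overlapped with their neighbours. SREBF1 is placed here by its downstream site alone. At 0 h its upstream site stood at 92.6 and 81.8 RPM, and the sum of its sites at 152 and 193 RPM. The sum was 139 and 152 RPM at 72 h. At 72 h the order was FASN (3889.6 ± 2660.2 RPM), ELOVL5 (478 ± 5.97), FADS1 (345 ± 6.30), SCD (318 ± 176), ACACA (273 ± 45.6), ELOVL7 (96.9 ± 17.9), SREBF1 (85.5 ± 19.1) and HPGD (28.2 ± 11.8), with FADS1, SCD and ACACA not separated by their spread. FASN and ELOVL5 held the highest levels at both times.

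The likeness of the courses was measured as Pearson's r of log2(mean RPM + 1) over the 7 times, a description over points that share libraries. FASN was most like FADS1 (0.979) and then SCD (0.9305), while ELOVL5 was most like ELOVL7 (0.967) and then ACACA (0.905). HPGD was most like ELOVL7 (0.871) and SREBF1, by its downstream site, most like FADS1 (0.827). FASN and ELOVL5 stood at 0.547, and SCD and ELOVL5 at 0.290. Among the 6 genes with more than 1 tested site, 0 showed unequal change among their sites over 18, 48 and 72 h against 0 h (edgeR's diffSpliceDGE with the Simes method, lowest adjusted p = 0.631 for ACACA, 0 at an unadjusted p under 0.05), where 1.91% of 2043 groups of neighbouring sites were called.

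In BicR cells both elongases, ACACA and FASN were higher with DHT. With 1 library per condition, 6 h and 24 h stood in for replicates in a model with a term for time in each line. Of the 13 member sites 4 were called, each higher with DHT than with ethanol, against 3.41% of 13214 sites called in either direction and 2.22% called higher. ELOVL7 had 26.6 RPM at 6 h and 42.9 RPM at 24 h with DHT, against 6.76 and 5.76 RPM with ethanol (log2 fold change 2.41, SE 0.34, adjusted p = 0.00256). ELOVL5 had 389.9 and 614 RPM with DHT, against 181 and 185 RPM with ethanol (log2 fold change 1.38, SE 0.22, adjusted p = 0.00444). ACACA had 146 and 208 RPM with DHT, against 86.5 and 82.7 RPM with ethanol (log2 fold change 1.01, SE 0.19, adjusted p = 0.0124). For all 3 genes both DHT libraries lay above both ethanol libraries, as at 8 of 13 member sites and 20.8% of all sites, and the 24 h library was the higher of the DHT pair. FASN had 567 and 639.9 RPM with DHT, against 347 and 282 RPM with ethanol (log2 fold change 0.94, SE 0.18, adjusted p = 0.0142), also without overlap.

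The ELOVL7 call held in each of 10 alternatives, 1 of which, the sum of the gene's sites, repeats the main test because ELOVL7 has 1 site. Those of ELOVL5 and ACACA ended without the 24 h ethanol library (0.0635 and 0.147) or the 24 h DHT library (0.073 and 0.167). For FASN the call ended without the 6 h or 24 h ethanol library (0.063 or 0.113), without the 24 h DHT library (0.197, log2 0.56) and without the term for time (0.136). At a second SCD site, 152 bases upstream of the leading one (102106837), levels were 28.9 and 37.9 RPM with DHT, against 21.7 and 20.3 RPM with ethanol (log2 fold change 0.64, SE 0.17, adjusted p = 0.0691). The leading SCD site had 83.9 and 76.6 RPM with DHT, against 87.8 and 82.6 RPM with ethanol, which overlapped (log2 -0.11, 95% interval -0.72 to 0.51). FADS1 had 108 and 79.8 RPM with DHT, against 77.7 and 65.5 RPM with ethanol (log2 0.35, adjusted p = 0.41). The main SREBF1 sites did not pass either (17740299 with log2 -0.07, 95% interval -0.34 to 0.20, and 17726925 with log2 0.17, 95% interval -0.19 to 0.54).

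In LNCaP cells 0 of 13 member sites were called for DHT against ethanol in edgeR (4 at an unadjusted p under 0.05, and 0 with DESeq2), where 0.129% of 13214 sites were called. ELOVL5 had 231 and 292 RPM at 6 h and 24 h with DHT, against 178 and 192 RPM with ethanol (log2 fold change 0.54, SE 0.22, adjusted p = 0.802). ACACA had 125 and 144 RPM with DHT, against 85.6 and 91.8 RPM with ethanol (log2 fold change 0.65, SE 0.19, adjusted p = 0.53). ELOVL7 had 17.7 and 19.7 RPM with DHT, against 11.3 and 12.3 RPM with ethanol (log2 fold change 0.71, SE 0.32, adjusted p = 0.88). In these 3 genes both DHT libraries were above both ethanol libraries, as at 5 of 13 member sites and 11% of all sites. FASN had 375 and 330.5 RPM with DHT, against 349 and 347 RPM with ethanol (log2 0.06, 95% interval -0.34 to 0.45), and the groups overlapped.

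Whether DHT acted more in BicR than in LNCaP was tested directly, and the difference passed at 0 of 13 member sites, and at 0% of 13214 sites (5 members and 754 of all sites at an unadjusted p under 0.05, and 0 members with DESeq2). The response was larger in BicR than in LNCaP by log2 1.70 (SE 0.47, adjusted p = 0.748) at ELOVL7, log2 0.88 (SE 0.26, adjusted p = 0.786) at FASN, log2 0.84 (SE 0.31, adjusted p = 0.831) at ELOVL5 and log2 0.91 (SE 0.25, adjusted p = 0.748) at the upstream SCD site. With ethanol alone, BicR and LNCaP differed at 0 of 13 member sites (2 at an unadjusted p under 0.05, and 0 with DESeq2), where 11.1% of all sites were called. ELOVL7 had 6.76 and 5.76 RPM in BicR, against 11.3 and 12.3 RPM in LNCaP (log2 fold change -0.84, SE 0.37, adjusted p = 0.16). FASN had 347 and 282 RPM in BicR, against 349 and 347 RPM in LNCaP (log2 -0.09, 95% interval -0.49 to 0.30). Without the BicR library that stood apart, 1 member was called, against 15.4% of all sites.

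**Figure D5:**
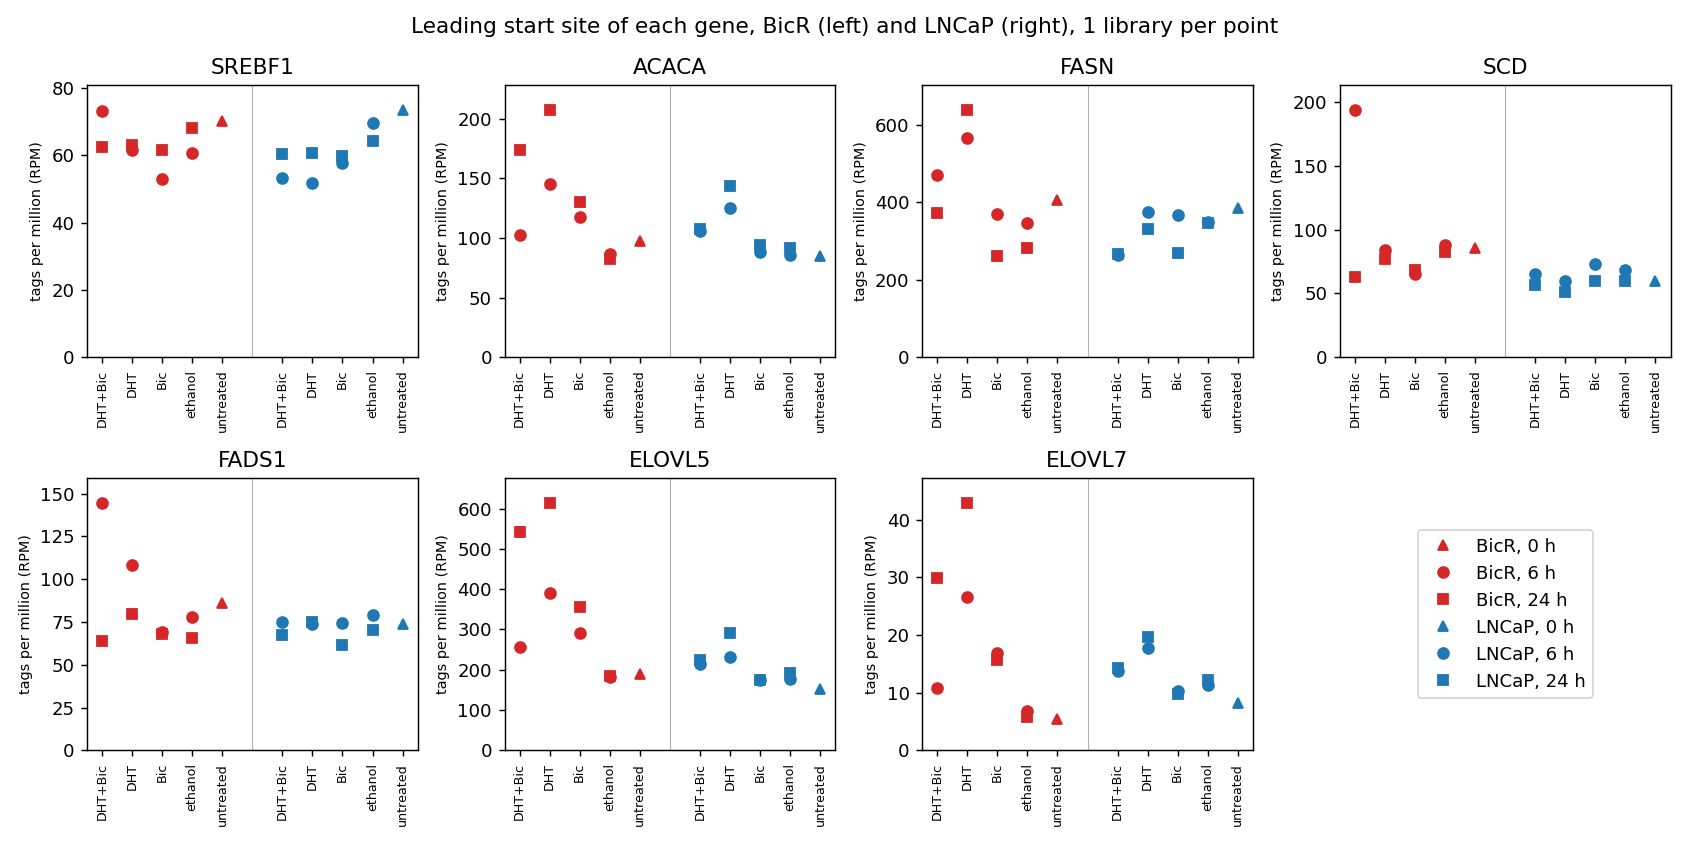
RPM at the leading start site of 7 genes by treatment in BicR cells (red, left of each panel) and LNCaP cells (blue, right), 1 library per point (circles 6 h, squares 24 h, triangles untreated 0 h; Bic is bicalutamide). ELOVL5, ELOVL7, ACACA and FASN are highest with DHT at 24 h in BicR, and SCD and FADS1 are highest in the BicR library with DHT and bicalutamide at 6 h. HPGD has no site in this table. For SREBF1 the leading site here is the upstream one (17740299), while in the time course it is the downstream one (17726925).

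Bicalutamide alone gave 0 calls among the 13 member sites in either line in edgeR, where 0.197% of sites were called in BicR and 0.00757% in LNCaP. The unadjusted p was under 0.05 for 6 members in BicR and for 0 in LNCaP, and DESeq2 made 2 calls in BicR (0.59% of all sites) and 0 in LNCaP. ELOVL7 in BicR had 16.8 and 15.6 RPM with bicalutamide at 6 h and 24 h, against 6.76 and 5.76 RPM with ethanol (log2 fold change 1.44, SE 0.35, adjusted p = 0.193). ELOVL5 had 292 and 356 RPM with bicalutamide, against 181 and 185 RPM with ethanol (log2 fold change 0.86, SE 0.22, adjusted p = 0.212). ACACA had 118 and 131 RPM with bicalutamide, against 86.5 and 82.7 RPM with ethanol (log2 fold change 0.60, SE 0.19, adjusted p = 0.416). In these 3 genes both bicalutamide libraries were above both ethanol libraries, as at 6 of 13 member sites and 8.2% of all sites. Leaving out the BicR library that stood apart, which belongs to another treatment and bears on the shared estimate of spread, gave 2 calls, against 0.878% of all sites. FASN had 371 and 260.3 RPM with bicalutamide, against 347 and 282 RPM with ethanol (log2 0.06, 95% interval -0.34 to 0.46).

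In LNCaP, ELOVL7 had 10.3 and 9.84 RPM with bicalutamide at 6 h and 24 h, against 11.3 and 12.3 RPM with ethanol (log2 -0.18, 95% interval -0.91 to 0.56). ELOVL5 had 175 and 174 RPM with bicalutamide, against 178 and 192 RPM with ethanol (log2 -0.04, 95% interval -0.51 to 0.44). ACACA had 87.9 and 94.2 RPM with bicalutamide, against 85.6 and 91.8 RPM with ethanol (log2 0.08, 95% interval -0.33 to 0.497). The intervals of all 3 genes include 0. Whether bicalutamide acted differently in the lines was not tested.

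Adding bicalutamide to DHT changed 0 of 13 member sites against DHT alone in either line (edgeR, with 2 members at an unadjusted p under 0.05 in BicR and 0 in LNCaP, and 0 with DESeq2 in both), where 0.144% of all sites were called in BicR and 0% in LNCaP. In BicR ELOVL7 had 10.8 and 29.9 RPM at 6 h and 24 h with both agents, against 26.6 and 42.9 RPM with DHT alone (log2 fold change -0.73, SE 0.30, adjusted p = 0.541). ELOVL5 had 256 and 542 RPM with both, against 389.9 and 614 RPM with DHT (log2 fold change -0.33, SE 0.21, adjusted p = 0.704). FASN had 471 and 371 RPM with both, against 567 and 639.9 RPM with DHT (log2 fold change -0.52, SE 0.18, adjusted p = 0.494). For these 3 genes each level with both agents was below its DHT counterpart at the same time, a pairing not counted over all sites. As groups, ELOVL7 and ELOVL5 overlapped with DHT alone. Groups did not overlap at 2 of 13 member sites, against 22.9% of all sites. The leading SCD site had 194 and 62.6 RPM with both, against 83.9 and 76.6 RPM with DHT (log2 0.59, 95% interval -0.04 to 1.21), and FADS1 had 145 and 63.9 RPM with both, against 108 and 79.8 RPM with DHT (log2 0.12, 95% interval -0.29 to 0.53), higher at 6 h and lower at 24 h. The 6 h values with both agents come from the BicR library that stood apart. In LNCaP FASN had 265 and 267 RPM with both, against 375 and 330.5 RPM with DHT (log2 -0.37, 95% interval -0.77 to 0.03). Without the 24 h BicR library with both agents, 4 members were called, 2 higher and 2 lower, against 6.89% of all sites. Those 4 calls rest on the 6 h library that stood apart, the 1 left with both agents, and without that library instead 0 members and 0% of all sites were called.

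Set against ethanol, in a contrast chosen with the data already in view, DHT with bicalutamide in BicR gave 2 calls among 13 member sites, both higher, against 2.79% of all sites in either direction and 1.94% higher, and in LNCaP 0 (2 at an unadjusted p under 0.05, 0 with DESeq2, against 0.00757%). ELOVL5 had 256 and 542 RPM with both agents, against 181 and 185 RPM with ethanol (log2 fold change 1.05, SE 0.22, adjusted p = 0.0263). ELOVL7 had 10.8 and 29.9 RPM with both, against 6.76 and 5.76 RPM with ethanol (log2 fold change 1.68, SE 0.35, adjusted p = 0.0271). Both calls ended without the 24 h ethanol library (0.18 and 0.193) or the 24 h library with both agents (0.111 and 0.205), and without the term for time. Without the 6 h library that stood apart they held (0.00178 and 0.0015). In that library the leading SCD site had 194 RPM, against 62.6 to 87.8 RPM in the other 8 BicR libraries, and FADS1 had 145 RPM, against 63.9 to 108 RPM in the others.

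Of the sites between the lines, 0 of the 4 genes with more than 1 site in the second table differed in how their sites were used (diffSpliceDGE with the Simes method, BicR against LNCaP with ethanol, lowest adjusted p = 0.639 for ACACA, 0 at an unadjusted p under 0.05), where 3.14% of 1244 groups of neighbouring sites were called. The tables were normalized separately, so their levels are set side by side with no test. In untreated LNCaP libraries at 0 h, FASN stood at 541 and 897 RPM in the time course and at 385 RPM in the other experiment, and ELOVL7 at 5.54 and 14.3 RPM and at 8.24 RPM. Each comparison of 1 line shares its ethanol libraries with the others, and each R1881 time shares the 0 h libraries.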

How the data were processed

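Capped RNA 5′ ends were sequenced on the HeliScope after cap trapping, per the labels' protocols. The authors deposited counts of tags per start site, and RPM (reads or tags scaled to a common total) of the same sites, per the file headers. The genome build is hg19, per the submitters' processing notes, and the aligner and the method of calling sites are not given in the sources used here. Within a library the deposited RPM was the count times 1 constant. Counts were tested with edgeR 4.0.16 in R 4.3.3 (TMM, filterByExpr with a minimum count of 10, quasi-likelihood F test, Benjamini-Hochberg over all sites, threshold 0.05), after a check on simulated data. For R1881 at 48 h this check called 16 of 96 sites set to a 4-fold change, so most were missed. It called 98 of 100 set to 16-fold, and 11 of its 125 calls were at unchanged sites. For DHT in BicR it called 70 of 99 sites at 2-fold and 97 of 100 at 4-fold, with 5 of 172 calls at unchanged sites. The R1881 fit had a coefficient per time, and the fit of the lines had 1 per line and treatment with a term for 24 h against 6 h in each line. Intervals of log2 fold changes use the t distribution with the fit's degrees of freedom. Binomial intervals (Clopper-Pearson, 95%) and the limit of 3 tags cover counting error only.

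Same-numbered R1881 libraries deviated together in 21 of 21 pairs (correlation 0.175 to 0.646, 9911 sites), so values with the number as a block are given beside the named sites whose call it changes. The labels do not say what the number stands for. Named sites are each gene's leading site, those called, and those with a mean of at least 10 RPM; the few others named were chosen after their values were seen. Members and lists were chosen with earlier results of these data known. A list of other pathway genes and a list of line markers were not used, because the tables name no genes. Alternatives were DESeq2, other normalizations and filters, the block, no term for time, and leaving out libraries. For single sites the sum of the gene's sites was 1 more.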

Additional observations from a re-analysis of the deposited data

Results flagged for a closer look

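In 3 cases 1 of 4 libraries lay far from the other 3 of its side of the late against early comparison, by Dixon's test on log2(RPM + 1). Chance alone gives about 1 such case in 20 groups, and no cause was tested. HPGD stood at 19.8 RPM in replicate 2 of 72 h, the lowest of the 4 late libraries. The third SREBF1 site, 17723753, stood at 5.83 RPM in replicate 2 of 6 h, the lowest of the 4 early libraries. The FASN site 80049533 stood at 1.75 RPM in the same library, again the lowest of 4, a level that equals 3 tags there. That 6 h library was among those that stood apart from the others.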

How the results depend on the processing

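None of the 23 called site results changed direction under an alternative. With the replicate block 4 of 241 site values changed sign, none of them called with or without it (lowest adjusted p = 0.857). Among alternatives for single sites, 205 kept their side of the threshold and 56 lost the call. Counts of called members moved as follows, with the share of all sites called in parentheses. DESeq2 gave 1 at 6 h (0.699%) and 6 at 72 h (2.96%) with R1881, against 0 and 3, and 2 for bicalutamide in BicR (0.59%), against 0. Without a filter, where 48 members are tested, there was 1 at 6 h (0.0922%), 5 at 72 h (2.29%), and 14 for late against early times (5.4%), against 8 of 19. The replicate block gave 4 (6 h, 6.61%), 8 (48 h, 8.54%, against 2) and 15 (72 h, 12.2%). With replicate 2 of 6 h and of 18 h both left out, 1 was called at 18 h (0.224%) and 9 were called at 72 h (5.52%). With replicate 1 of those times left out, the counts were 3 (6 h, 12.7%), 4 (48 h, 3.76%) and 9 (72 h, 5.74%). With no term for time, DHT with bicalutamide against ethanol in BicR gave 0. Without the BicR library with both agents at 6 h, an alternative added after seeing the data, bicalutamide in BicR gave 2 (0.878%) and BicR against LNCaP gave 1 (15.4%). Leaving out 1 library at a time gave counts of 0 to 1 (6 h), 0 to 0 (12 h), 0 to 2 (18 h), 1 to 2 (48 h), 1 to 4 (72 h) and 4 to 10 for late against early times. In BicR it gave 1 to 4 for DHT, 0 to 1 for bicalutamide, 0 to 4 for DHT with bicalutamide against DHT, and 0 to 3 for that combination against ethanol. The cause of these shifts was not tested. The replicate 1 libraries were the shallowest, and 3 tags there equal up to 19.4 RPM.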
